A study of Mus musculus with 2 samples.

Results

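Collagen-rich mesenchymal cells of the mouse liver were taken as cells with at least 3 transcripts of Col1a1 and Col3a1 together, among cells with at least 10 gene counts and a volume of at least 50. Of 111966 segmented cells in 2 liver sections, 25499 passed the limits on counts and volume and are called kept cells. Of these, 841 were collagen-rich. Section 1 held 473, which was 5.14% of its 9209 kept cells, with an exact 95% binomial interval of 4.69% to 5.61%. Section 2 held 368, which was 2.26% of its 16290 kept cells, with an interval of 2.04% to 2.499%. The cells were chosen by their measured collagen counts, so the levels of Col1a1 and Col3a1 below describe the choice and were not tested.

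The sections were imaged by MERFISH, an imaging method that locates RNA molecules in a slice and names each by the barcode of its gene. The panel had 500 genes and 50 blank barcodes that name no gene. Both sections were 10 µm slices of snap-frozen mouse liver, labelled replicates 1 and 2 of 1 group named Liver_2d. The labels give no genotype, strain, age or treatment, and the tag 2d was not interpreted. The series' design text speaks of metastasis-bearing mice given TA33 or TA33.Combo, but no label ties either section to an agent, so none was assigned. Whether the sections came from separate animals is not stated. The p-values reflect counting error and disagreement between these slices, with the spread taken in part from other genes. Such disagreement may be technical, so the p-values cannot be read as a spread between animals.

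Col1a1 encodes a chain of type I collagen and Col3a1 that of type III collagen, the fibrillar collagens of connective tissue. In the liver they are made mainly by mesenchymal cells: hepatic stellate cells in the space between hepatocytes and sinusoids, fibroblasts around the portal tracts, and smooth muscle cells and fibroblasts around the larger vessels. These cells hold the vascular and biliary architecture and send growth factors and Notch and Wnt ligands to hepatocytes, bile duct cells and endothelium.

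Depth limited every value. Kept cells had a median of 27 counts in section 1 and 15 in section 2. Collagen-rich cells had medians of 38 and 18, of which 26 and 10 came from genes other than the 2 collagens, against 27 and 15 in the other kept cells. Levels are therefore given as counts per 10000 counts of the 498 genes outside the rule, summed over the cells of a class, and intervals cover counting error only. The highest blank barcode stood at 7.27 and 9.77 per 10000 in the collagen-rich cells of sections 1 and 2, a level that 206 and 178 genes exceeded. No cell identifier was shared between the sections.

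Col1a1 made up most of the collagen signal. In section 1 the collagen-rich cells held 4930 Col1a1 and 394 Col3a1 counts, a Col1a1 share of 92.6% (exact 95% interval 91.9% to 93.3%). In section 2 they held 2544 and 243, a share of 91.3% (90.2% to 92.3%). The median cell had 6 collagen counts in each section, and the highest had 156 and 63. Both transcripts were seen together in 43.6% of the cells in section 1 and 43.8% in section 2. Cells without any Col1a1 numbered 3 and 1, whereas 264 and 206 had no Col3a1.

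The weight of collagen within a cell differed between the sections. The 2 collagens took 18.6% of all counts of these cells in section 1 and 35.3% in section 2. In section 1, 71 of the 473 cells reached the threshold with collagen below 5% of their counts, against 1 of 368 in section 2. At the threshold itself, 99 and 86 cells had exactly 3 collagen counts, and 210 and 185 kept cells just outside had 2. Of the cells with 3 counts, 55.6% and 60.5% lay within 50 µm of another collagen-rich cell, against 45.2% and 49.2% of those with 2. The share rose to 95.3% and 91.5% among cells with 10 or more, and was 23.7% and 13.3% among cells with none.

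The cells lay close to one another in both sections. The median distance from a collagen-rich cell to the next was 17.1 µm in section 1 and 17.7 µm in section 2, while other kept cells lay a median of 92.0 µm and 140 µm from one. Among kept cells within 50 µm of a collagen-rich cell, 27.4% and 24.2% were collagen-rich themselves, against 3.84% and 1.57% around other kept cells. The share fell with distance from 43.3% and 45.5% within 10 µm to 7.70% and 3.51% at 200 to 300 µm. The deposited coordinates name no unit, and µm was assumed.

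Cells linked by gaps of at most 50 µm formed 8 clumps of 10 or more cells in section 1, with 169 cells or 35.7% of the total. Section 2 had 9 such clumps with 161 cells, or 43.8%. The largest clumps held 47 and 45 cells and reached 327 µm and 218 µm from end to end. Another 179 and 130 cells lay in groups of fewer than 10, and 125 (26.4%) and 77 (20.9%) had no collagen-rich cell within 50 µm and are called solitary. The share in clumps moved with the settings, from a mean over sections of 21.8% with a link of 30 µm to 49.6% with 75 µm.

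**Figure D1:**
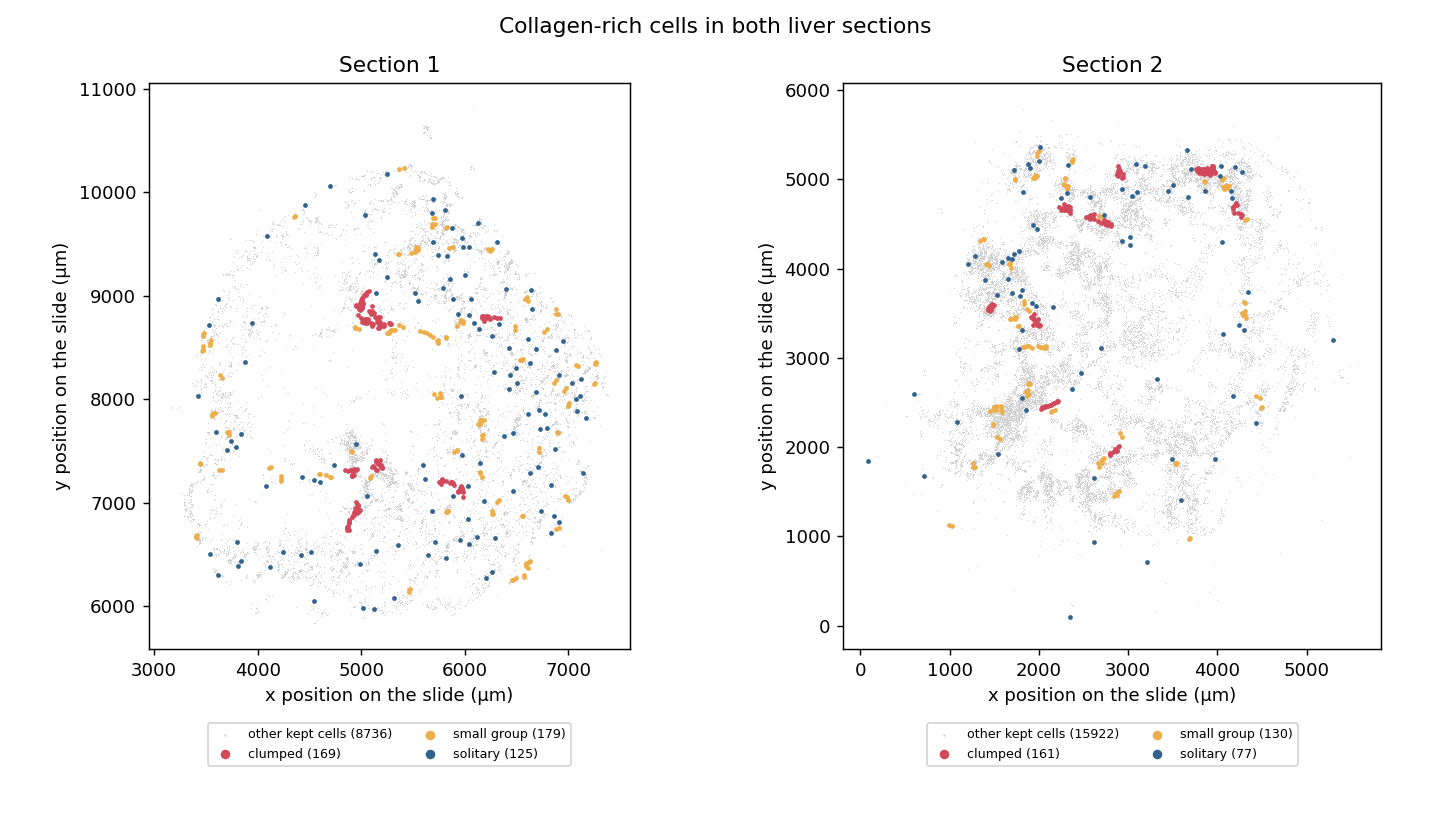
Positions of kept cells on the slide in section 1 (left) and section 2 (right), both axes in µm: other kept cells in grey, collagen-rich cells in clumps of 10 or more in red, in smaller groups in orange and solitary in blue. The 169 and 161 clumped cells form 8 and 9 compact bands or patches, while solitary cells are spread over the tissue.

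Much of the Col1a1 RNA lay outside segmented cells. Of 13107 Col1a1 transcripts in section 1, 37.6% fell in collagen-rich cells, 6.72% in other kept cells, 7.33% in cells below the limits and 48.3% in no cell. Of 8822 in section 2 the shares were 28.8%, 10.6%, 22.1% and 38.5%. For all genes outside the rule, 39.99% and 34.4% fell in no cell, so the Col1a1 share was above that of other genes together in both sections. Col3a1 stood at 36.5% and 35.5%, below and above them. Single genes exceeded Col1a1, with Lgals1 at 49.1% in section 1 and Jag1 at 44.4% in section 2.

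The collagen transcripts in no cell lay close to the collagen-rich cells. Col1a1 transcripts without a cell were a median of 15.5 µm and 20.04 µm from the nearest collagen-rich cell centre, against 99.8 µm and 159 µm for all genes outside the rule. Within 25 µm lay 63.0% and 55.8% of them, against 10.8% and 4.45% of other transcripts. Spp1, which encodes the secreted matrix protein osteopontin, had 52.2% and 24.1% of its few unassigned transcripts (46 and 29) within this distance. Acta2, the smooth muscle actin gene, had 22.2% and 48.9% of 36 and 45. Hp, encoding the plasma protein haptoglobin of hepatocytes, had 9.93% and 4.30%, close to the value of all genes.

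**Figure D2:**
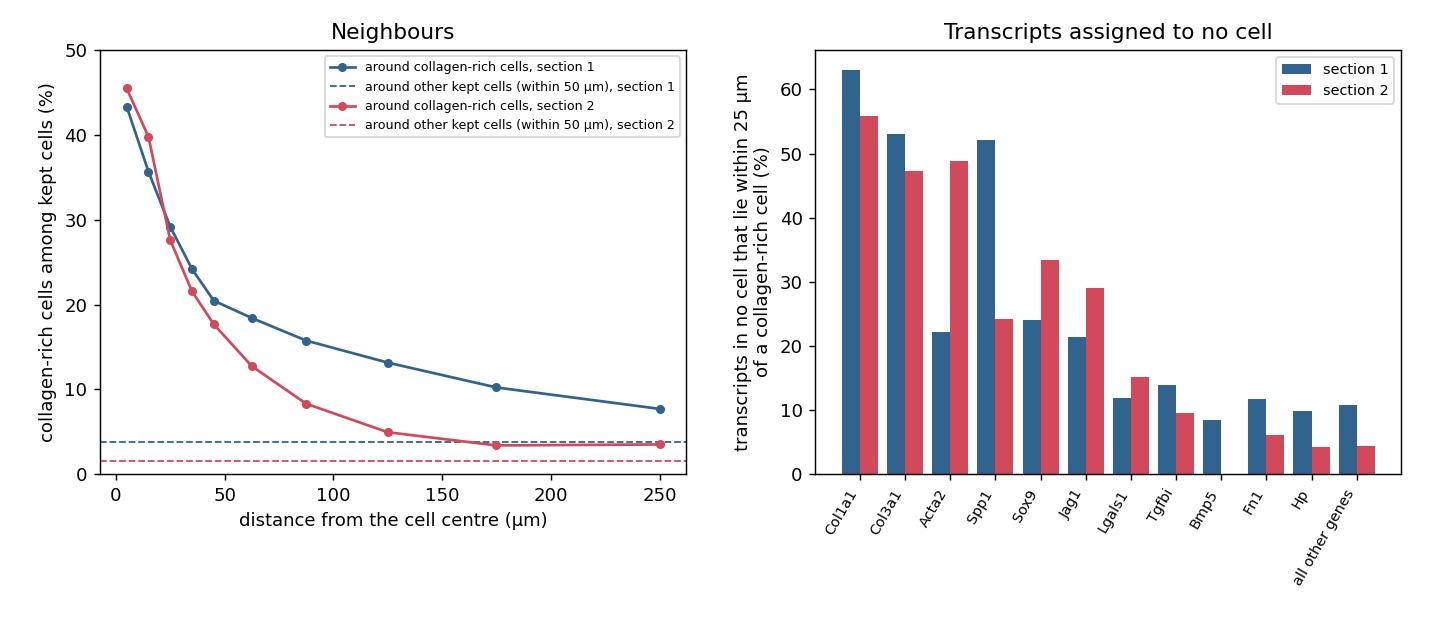
Left: share of collagen-rich cells (%) among kept cells by distance (µm) from a collagen-rich cell, with dashed lines for the share within 50 µm of other kept cells, and points at the middle of each distance range. Right: share (%) of transcripts in no cell that lie within 25 µm of a collagen-rich cell, by gene and section. The neighbour share falls from 43.3% and 45.5% within 10 µm, and Col1a1 stands at 63.0% and 55.8% against 10.8% and 4.45% for all other genes.

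Pooled over the collagen-rich cells, Col1a1 was placed much like other transcripts in the plane of the slice and differently in depth. Its median distance from the cell centre was 4.76 µm in section 1 and 4.75 µm in section 2, against 5.32 µm and 5.00 µm for the genes outside the rule. The imaged stack is numbered from plane 0 upward, and planes 0 and 1 held 34.1% and 34.3% of the Col1a1 transcripts of these cells. They held 55.0% and 45.1% of the other transcripts. Col3a1 followed the other genes more closely in section 1, with 55.8%, and had 51.0% in section 2. The pools weigh cells differently. Cells in clumps of 10 or more gave 2853 of the 4930 Col1a1 transcripts in section 1 and 1324 of 2544 in section 2. They gave 3989 of 23370 and 1895 of 5119 transcripts outside the rule. The part of this weighting in the plane shares was not tested.

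The first comparison set the collagen-rich cells against the other kept cells within 50 µm of one, 2221 cells in section 1 and 2307 in section 2, and so asked which genes mark the cells apart from their immediate surroundings. The smooth muscle gene Acta2, the fibroblast gene Pdgfra, the stellate genes Bmp5 and Nes and the Notch ligand Jag1 were higher in the collagen-rich cells. Of 15 hepatocyte genes, 11 were lower. Of 297 genes tested, 52 passed an adjusted p of 0.05 in edgeR's quasi-likelihood test with the section as a block, which was 17.5%; 21 were higher (7.07%) and 31 lower (10.4%). All 21 higher genes and 29 of the 31 lower ones differed in the same direction in both sections.

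The test had 4 sums and 1 residual degree of freedom, and the fit took each gene's spread almost wholly from the other genes, with 10800 prior degrees of freedom. Without the section as a block none passed, with 18 at an unadjusted p under 0.05, and with neighbours taken within 100 µm 7 of 365 passed. TMM scaling put the median gene at -0.09 on the log2 scale, and without it the median was 0.34 and the split was 38 higher against 12 lower, so log2 differences are read against that median.

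Acta2, the smooth muscle gene, had the largest log2 difference of the genes called. It stood at 8.56 and 43.0 per 10000 in the collagen-rich cells of sections 1 and 2, against 1.26 and 2.52 in their neighbours. Its log2 difference was 2.96 (SE 0.48, n = 2 sections, edgeR adjusted p = 2.5e-07), so each section showed several times more, though from only 20 and 22 counts. Section 1 was close to its highest blank barcode for this gene, and section 2 was well above it.

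Pdgfra, the platelet-derived growth factor receptor of fibroblasts, stood at 14.1 and 3.91 per 10000 against 1.36 and 1.47. The log2 difference was 2.52 (SE 0.48, edgeR adjusted p = 1.6e-05), but it rested on section 1, since section 2 had only 2 counts and stood below its highest blank. Tgfbi, a matrix protein induced by TGF-beta, stood at 88.6 and 27.3 against 15.9 and 8.20, a log2 difference of 1.84 (SE 0.30, edgeR adjusted p = 2.5e-07). Both sections were clearly higher, and section 1 had most of the counts. Lgals1, encoding galectin-1, stood at 63.3 and 309 against 24.2 and 51.5, a log2 difference of 1.52 (SE 0.27, edgeR adjusted p = 2.56e-06). Here section 2 had the larger gap, the reverse of Tgfbi. These 4 genes were picked as markers of the cells with earlier results of these data known, so their direction is not independent evidence for the label.

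Of the stellate genes, Bmp5 and Nes were higher. Bmp5, a bone morphogenetic protein, stood at 36.4 and 11.7 per 10000 against 3.87 and 2.10, a log2 difference of 2.61 (SE 0.56, edgeR adjusted p = 1.2e-04). The section 2 value came from 6 counts, against 85 in section 1, and was close to the highest blank barcode of section 2 (9.77). Nes, the intermediate filament nestin, stood at 7.70 and 11.7 against 2.09 and 1.89, a log2 difference of 1.72 (SE 0.45, edgeR adjusted p = 0.0022). Nes rested on 18 and 6 counts, was close to the highest blank barcode of each section (7.27 and 9.77), and passed in 2 of 5 alternatives. Hgf, the hepatocyte growth factor that stellate cells secrete, stood at 18.8 in section 1 against 5.65 in the neighbours. In section 2 no Hgf count fell in a collagen-rich cell, which allows a level of up to 5.86, against 3.99 in the neighbours, and the gene did not pass the test (log2 difference 0.78, edgeR adjusted p = 0.40). Of the 3 stellate genes tested, 2 rose, against 21 of all 297 genes (7.07%). The list is too short to set against that share. Lrat, Reln, Des, Pdgfrb and Dcn, which define stellate cells and fibroblasts best, were not analysed here, and the label rests on the collagens and a handful of genes.

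Among ligands, Jag1 and Wnt4 were higher. Jag1, the Notch ligand of portal mesenchyme, stood at 15.0 and 21.5 per 10000 against 3.35 and 1.05, a log2 difference of 2.38 (SE 0.47, edgeR adjusted p = 2.8e-05). The receptor Notch1, named after its value had been seen, stood at 107 and 64.5 against 38.5 and 19.8, a log2 difference of 1.14 (SE 0.26, edgeR adjusted p = 2.7e-04), and was higher in each section. Wnt4, a secreted Wnt ligand, stood at 14.5 and 54.7 against 5.02 and 8.62, a log2 difference of 1.62 (SE 0.47). Other kept cells of section 2 at any distance stood at 32.1 for Wnt4, so the gap there was with the near neighbours more than with the section as a whole. Of the 12 tested genes on the list of mesenchymal growth factors, Bmp5, Wnt4 and Jag1 rose and none fell. Over all 297 genes, 21 rose (7.07%) and 31 fell (10.4%). The median log2 difference on the list was 0.54, against -0.09 over all 297 genes. Cxcl12, the chemokine of stromal cells, stood at 84.7 and 46.9 against 47.4 and 20.2 and did not pass (edgeR adjusted p = 0.13).

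Myadm, Ahnak and Zyx, genes of the cell cortex and adhesion, were also higher. Myadm, a membrane protein linked to actin, stood at 55.2 and 104 per 10000 against 16.5 and 15.3, a log2 difference of 1.75 (SE 0.27). Ahnak, a large scaffold protein under the plasma membrane, stood at 30.0 and 15.6 against 9.31 and 1.89. Zyx, encoding the focal adhesion protein zyxin, stood at 76.6 and 93.8 against 34.5 and 30.9. Each was higher in both sections. On a list of 13 such genes, chosen after values had been seen, Zyx and Ahnak rose among 11 tested. Of all 297 genes, 21 rose (7.07%). All 11 listed genes were above their neighbours in both sections before scaling, as were 147 of all 297 genes. Trib2, a pseudokinase, stood at 16.7 and 11.7 against 2.09 and 2.10, a log2 difference of 2.44 (SE 0.48, edgeR adjusted p = 2.8e-05), from 39 and 6 counts. Its section 2 value was close to the highest blank barcode there (9.77). Il6st, the shared receptor subunit of interleukin-6 cytokines, named after its value had been seen, stood at 50.1 and 54.7 against 15.4 and 12.6.

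The matrix genes beyond the collagens did not rise together. Of 5 tested on the list of matrix and TGF-beta genes, Tgfbi and Lgals1 rose, against 21 of all 297 genes (7.07%). Both are among the 4 genes picked as markers with earlier results known. Fn1, encoding fibronectin, which hepatocytes also make, stood at 763 and 352 per 10000 against 942 and 363 and did not pass (log2 difference -0.63, edgeR adjusted p = 0.455). Thbs1, encoding thrombospondin-1, stood at 103 and 84.0 against 64.2 and 31.7 and did not pass either (edgeR adjusted p = 0.13). Itgb1, the integrin beta-1 chain, stood at 12.8 and 21.5 against 5.65 and 5.25 (edgeR adjusted p = 0.14).

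**Figure D3:**
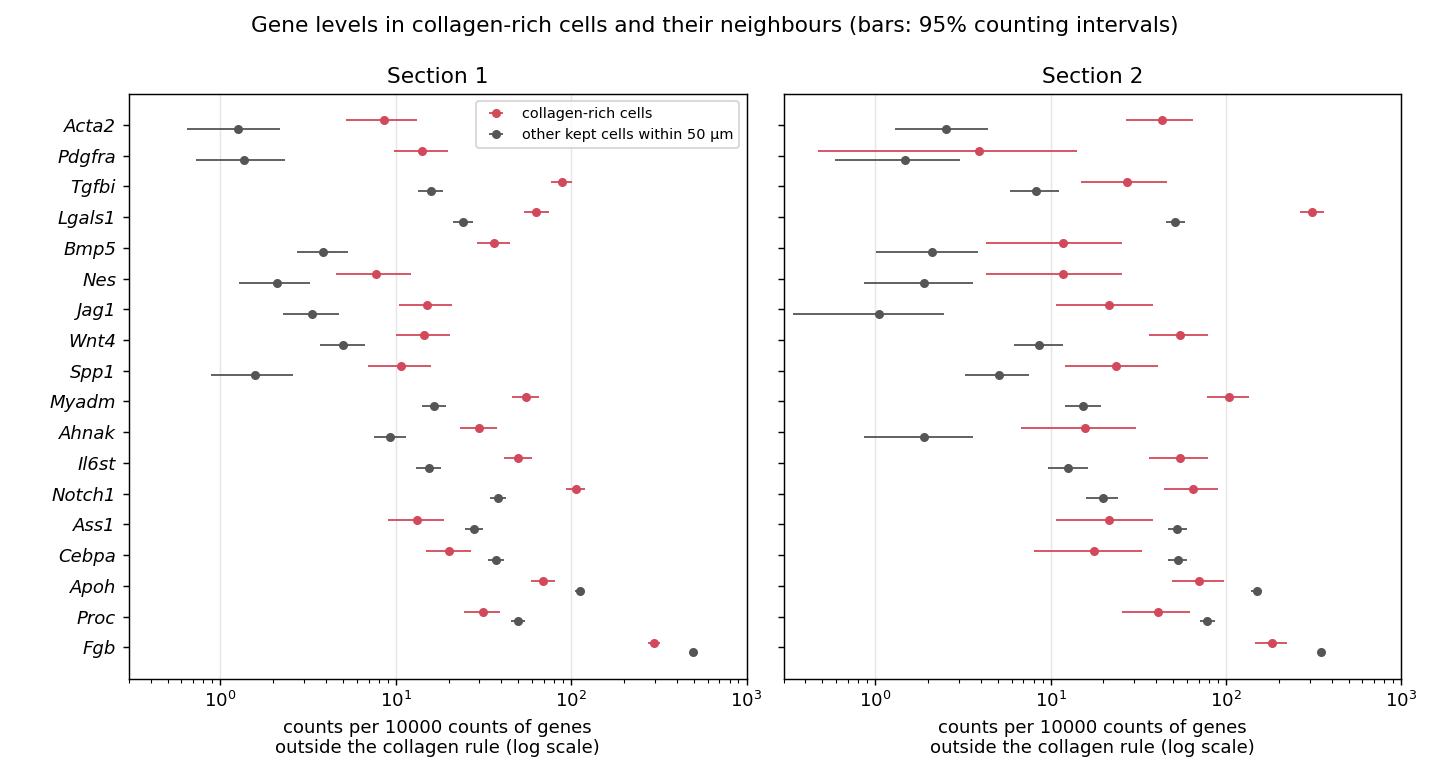
Levels of 18 genes in collagen-rich cells (red) and in other kept cells within 50 µm (dark grey), in counts per 10000 counts of genes outside the rule on a log axis, section 1 left and section 2 right; points are class sums and bars are 95% counting intervals. From Acta2 to Notch1 the red points lie to the right in both sections, and from Ass1 to Fgb they lie to the left.

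Markers of bile duct and endothelial cells were present beside the mesenchymal ones. Spp1 stood at 10.7 and 23.4 per 10000 against 1.57 and 5.04, a log2 difference of 2.04 (SE 0.47, edgeR adjusted p = 3.45e-04). Of its 25 counts in section 1, 15 came from 4 cells of 1 clump of 13 cells. In that section, 1 collagen-rich cell held 10 of the 25. Sox9, a transcription factor of bile duct cells, stood at 12.0 and 44.9 against 5.23 and 10.3 and did not pass (log2 difference 1.19, edgeR adjusted p = 0.0702). The 8 bile duct genes on the panel summed to 48.8 and 104 per 10000 in the collagen-rich cells against 33.1 and 30.9 in the neighbours, and Krt7, a keratin of bile duct cells, was at 0 counts in the collagen-rich cells of section 2. The 10 endothelial genes summed to 198 and 143 against 129 and 61.2, with none at 0. Vwf, made by the endothelium of larger vessels, was the 1 of these 10 that rose, a share near the 7.07% over all 297 genes. It went from 1.46 and 3.99 in the neighbours to 2.14 and 25.4, with 5 and 13 counts. Its section 1 value was below the highest blank barcode there (7.27), and it passed in 1 of 6 alternatives. The part of bile duct and endothelial RNA in the results was not tested.

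Hepatocyte genes were lower but far from absent. Of 15 tested, 11 fell and none rose, against 31 (10.4%) and 21 (7.07%) of all 297 genes. Their median log2 difference was -1.07, against -0.09 over all genes. Ass1, an enzyme of the urea cycle, stood at 13.3 and 21.5 per 10000 against 28.0 and 52.8, a log2 difference of -1.59 (SE 0.31, n = 2 sections). Cebpa, a transcription factor of hepatocytes, stood at 20.1 and 17.6 against 37.4 and 53.0. Fgb, encoding a fibrinogen chain, stood at 298 and 182 against 493 and 350. Cyp2f2, a cytochrome P450, stood at 13.3 and 11.7 against 24.7 and 26.3, and G6pc, an enzyme of glucose release, at 15.0 and 15.6 against 37.2 and 19.1. The gap junction gene Gjb1 stood at 20.5 and 60.6 against 34.3 and 112, and the bile transporter gene Abcc2 at 34.2 and 11.7 against 65.3 and 17.7. Genes of other secreted liver proteins were lower too, with Apoh at 69.3 and 70.3 against 112 and 149 and Proc, encoding protein C, at 31.2 and 41.0 against 49.9 and 78.4. The 16 hepatocyte genes together still took 1944 and 2016 of every 10000 counts in the collagen-rich cells, against 2628 and 3199 in the neighbours. The part of this hepatocyte RNA in the differences listed here was not tested.

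Few genes of blood-forming cells could be tested. Of 5 erythroid genes, Klf1 and Car2 fell, against 31 of all 297 genes (10.4%). Klf1, a transcription factor of red cell precursors, stood at 33.4 and 21.5 per 10000 against 67.1 and 20.8, so that its fall came from section 1 alone. Car2, a carbonic anhydrase, stood at 21.4 and 23.4 against 31.4 and 26.9 and passed in 2 of 11 alternatives. Mcpt8, a protease of basophils, stood at 3.42 and 1.95 against 10.1 and 6.94, from 8 and 1 counts. None of the 4 macrophage genes, 3 B-lineage genes or 1 T-cell gene tested passed. These lists are too short to set against the 17.5% called over all 297 genes.

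The second comparison set the collagen-rich cells against all other kept cells, 8736 and 15922. The same kinds of gene led, and none of 423 genes passed edgeR's adjusted p of 0.05 (0%), with 69 at an unadjusted p under 0.05, of which 39 were higher and 30 lower. The lowest adjusted p was 0.087, shared by Acta2, Tgfb2, Spp1 and Bmp5. DESeq2 on the same sums called 24 higher and 31 lower. In edgeR, 9 to 21 genes passed when the threshold was 2 or 5 collagen counts, when cells had to hold 10 counts beside collagen or 20 in all, or when only transcripts within 5 µm of the centre were summed.

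Acta2 stood at 8.56 and 43.0 per 10000 against 0.722 and 1.07 in the other kept cells, a log2 difference of 3.93 (SE 0.44). Tgfb2, the TGF-beta isoform, stood at 5.99 and 19.5 against 0.444 and 0.688, a log2 difference of 3.74 (SE 0.54), from 14 and 10 counts. It was too rare to be tested against the near neighbours, which stood at 0.732 and 1.68. Both genes were higher in each section, though Tgfb2 in section 1 stood below the highest blank barcode there (7.27). Jag1 was at a log2 difference of 2.87 (SE 0.46, edgeR adjusted p = 0.097), Sox9 at 2.20 (SE 0.44, edgeR adjusted p = 0.12) and Pdgfra at 2.54 (SE 0.63, edgeR adjusted p = 0.21).

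Per cell, the other markers were sparse. Of Acta2, Pdgfra, Lgals1 and Tgfbi, 271 of the 473 cells in section 1 (57.3%) and 229 of the 368 in section 2 (62.2%) had no count at all. Exactly 1 marker was seen in 150 and 126 cells, 2 in 48 and 13, and 3 in 4 and 0. Lgals1 was seen in 23.0% and 31.5% of collagen-rich cells and in 9.09% and 7.07% of other kept cells. With each cell thinned to 10 counts outside the rule, which left out 111 and 165 shallower collagen-rich cells, the shares were 10.3% and 25.6% against 3.77% and 4.32%. For Acta2 the thinned shares were 1.61% and 4.83% against 0.0819% and 0.102%. For Hp, a hepatocyte gene, they were 41.6% and 54.0% against 50.1% and 78.6%, the opposite direction.

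Which markers shared cells differed by pair. In section 1, 41 of the 57 cells with Bmp5 also had Tgfbi, of 100 cells with Tgfbi, and 16 of the 29 with Pdgfra had Tgfbi. Acta2 and Pdgfra shared 1 cell among 20 and 29. In section 2, Acta2 shared 8 of its 21 cells with Lgals1 and none with Tgfbi or Pdgfra. Bmp5 and Tgfbi shared 1 of 6 and 13 cells there. These pairs were not adjusted for the depth of single cells.

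Among the collagen-rich cells themselves, cells with more collagen had higher levels of a few genes. The limit of 10 counts per cell included collagen, so cells with more collagen could pass with fewer other counts. In sections 1 and 2 the median cell had 40 and 16.5 other counts at 3 collagen counts. At 10 or more it had 15 and 7.5. The part of this in the levels below was not tested. Lgals1 stood at 40.9 and 104 per 10000 in cells with 3 collagen counts and at 148 and 662 in cells with 10 or more. In section 1 the level was flat from 3 to 9 collagen counts, at 34.4 to 40.9, and high only at 10 or more, while in section 2 it was higher at each step. Myadm stood at 52.1 and 39.1 at 3 counts and at 82.3 and 282 at 10 or more. Thbs1 stood at 65.1 and 58.7 and then at 200.1 and 217, with a dip to 32.7 at 4 to 5 counts in section 2. In section 1, 109 of the 240 Thbs1 counts of collagen-rich cells lay in 26 cells. Clumped cells there stood at 45.1 for Thbs1, below the 65.5 of solitary cells, whereas section 2 had 100 against 33.9. Fgb went the other way, from 309 and 215 to 247 and 86.8.

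**Figure D4:**
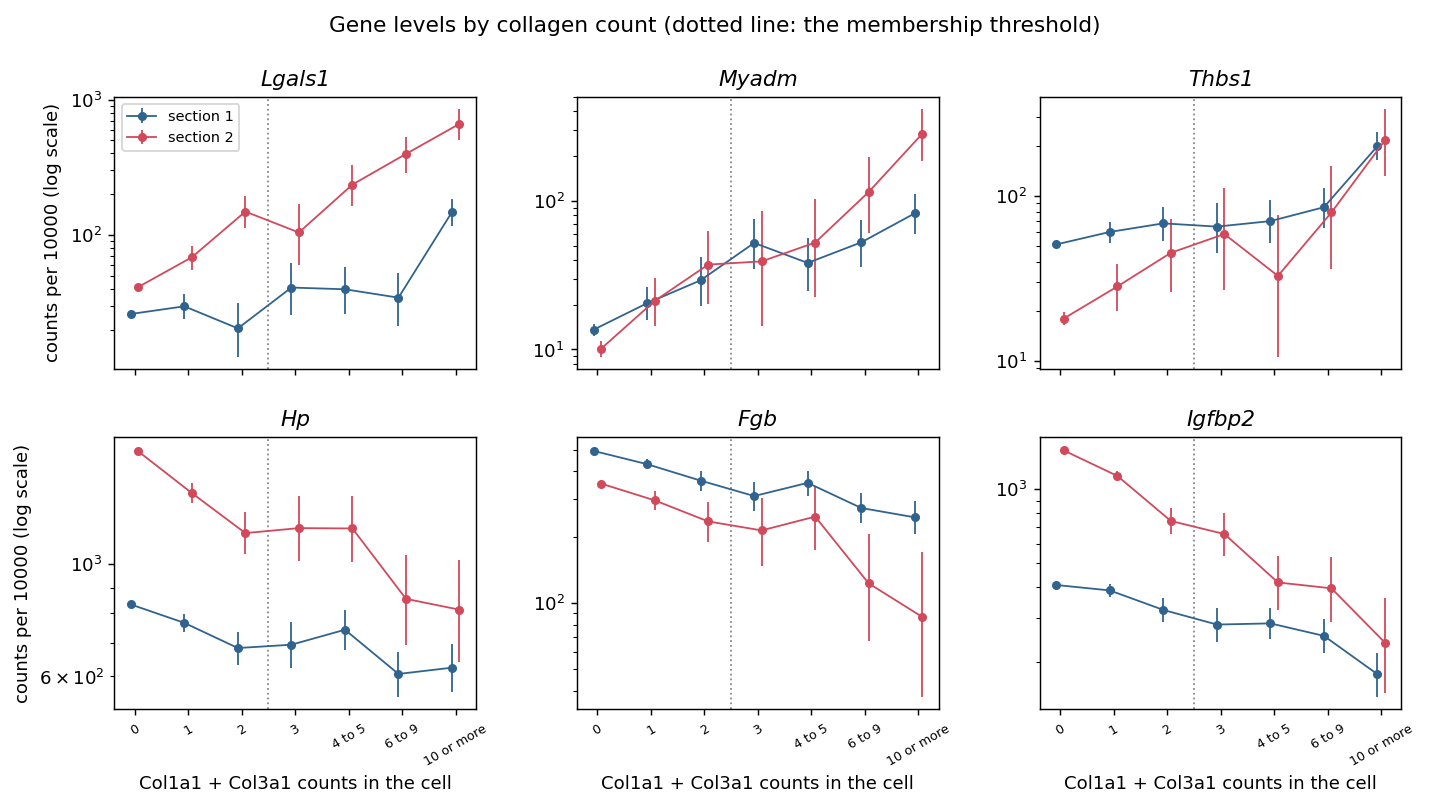
Levels of 6 genes (counts per 10000 counts of genes outside the rule, log axes) in kept cells by their Col1a1 plus Col3a1 count, section 1 in blue and section 2 in red, with 95% counting intervals; the dotted line is the threshold of 3. Lgals1, Myadm and Thbs1 are highest in cells with 10 or more collagen counts, while Hp, Fgb and Igfbp2 decline from the cells with 0. The limit of 10 counts per kept cell included collagen.

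The test of cells with 6 or more collagen counts against those with 3 had 87 genes and passed none (0%), with 6 at an unadjusted p under 0.05 in edgeR. Lgals1 stood at 87.4 and 515 against 40.9 and 104, a log2 difference of 1.57 (SE 0.41, edgeR adjusted p = 0.65). Thbs1 stood at 139 and 141 against 65.1 and 58.7, a log2 difference of 1.04 (SE 0.21, edgeR adjusted p = 0.65). Smo, the Hedgehog pathway receptor, the transcription factor Nfia and Cst3, encoding cystatin C, were the other 3 higher ones and E2f2, a cell cycle transcription factor, the lower one; these were named after their values had been seen. DESeq2 called 1 gene, which was lower. Simulated counts of this size let the test find 56.5% of 4-fold changes and 8% of 2-fold changes. No alternative of this test set a minimum of counts outside the rule per cell. The test of clumped against solitary cells below had none either.

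Clumped and solitary cells held different amounts of collagen, the measure that chose them, and these values are a description. Collagen made up 42.5% and 42.8% of the counts of clumped cells in sections 1 and 2, against 5.57% and 23.2% in solitary cells. The Col1a1 share of collagen counts was 96.9% and 93.5% in clumps, and 81.7% and 89.0% in solitary cells, against 81.0% and 83.9% in the other kept cells. The solitary value was close to that of other kept cells in section 1 and lay between them and the clumps in section 2. Solitary cells of section 1 held a mean of 85.5 counts outside the rule, against 23.6 in clumped cells, and their median volume was 1.57 times that of other kept cells. Of the 71 cells of section 1 with collagen below 5% of counts, 48 were solitary.

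Transcripts of blood-forming and cycling cells, named here after their values had been seen, were low in the clumps of section 1. Mki67, a marker of cycling cells, stood at 47.6 per 10000 in them, against 204 in solitary cells and 155 in other kept cells. Cd24a, high in blood-forming precursors, stood at 91.7 in solitary and 90.6 in other kept cells, and Epor, the erythropoietin receptor, at 46.8 and 40.02. Both had no count in the clumps of that section, which allows up to 7.52. The solitary cells were thus near the other kept cells for Cd24a and Epor.

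Section 2 did not show this pattern. Mki67 stood at 20.4 in solitary, 21.1 in clumped and 23.4 in other kept cells, and the 95% counting interval of the solitary value, 4.20 to 59.5, did not reach the level of section 1. Epor stood at 33.9 in solitary and 21.1 in clumped cells. Cd24a went the other way, at 6.79 in solitary and 10.6 in clumped cells. At most 5 counts lay behind each of these values for solitary and clumped cells.

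The test of clumped against solitary cells covered 74 genes and passed none (0%) in edgeR, with 2 at an unadjusted p under 0.05; at this size it recovered 0 of 16 simulated 4-fold changes and 0 of 16 2-fold ones. Lgals1 stood at 186 and 485 per 10000 in clumps against 29.0 and 170 in solitary cells, a log2 difference of 2.18 (SE 0.56, edgeR adjusted p = 0.33). It passed in DESeq2 and in edgeR with links of 30 or 75 µm, with clumps of at least 5 or 20 cells and without TMM. Tgfbi stood at 20.1 and 10.6 against 124 and 33.9, a log2 difference of -2.22 (SE 0.68, edgeR adjusted p = 0.41), and passed in none of 8 alternatives. Both sections showed the same direction for both genes, with 2 and 5 Tgfbi counts in section 2.

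Some clumps lay in hepatocyte surroundings of the pericentral kind and others did not. The surroundings were read from other kept cells within 50 µm, as the log2 ratio of Glul, Cyp2e1 and Gulo, which mark hepatocytes around the central vein, to Pck1, Ass1 and Hsd17b13, which mark those around the portal tract, relative to the section. A ratio of at least 1 was called pericentral side and one of at most -1 periportal side, limits set after values had been seen. In section 1, 5 of 8 clumps were on the pericentral side and 1 was at -2.31. The 2 largest had no ratio, since 1 of the 2 landmark sums was 0 in each. In section 2, 3 of 9 were on the pericentral side, 1 was near 0 and the other 5 ranged from -3.17 to -0.41.

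Among kept cells that could be placed, the collagen-rich share was lowest between the 2 ends. Against the periportal side of section 1 the gap was small. Collagen-rich cells were 8.31% of kept cells on the pericentral side of section 1, 3.01% between and 3.75% on the periportal side. In section 2 the values were 3.14%, 1.09% and 3.38%. With at least 20 landmark counts around a cell they were 10.3%, 2.23% and 2.89%, and 2.02%, 0.863% and 1.87%, so the middle was lowest in each case. The first setting left 178 and 111 collagen-rich cells unplaced and the second 351 and 316. Under the first they were 6.92% and 2.90% of the unplaced kept cells, above the middle in both sections. The second values rest on 72, 36 and 14 cells in section 1 and on 18, 17 and 17 in section 2. The ratio came from other kept cells alone, and ratios of few counts scatter further toward either end. Collagen-rich cells more often had few landmark counts around them. In sections 1 and 2 these were 37.6% and 30.2% of them, against 27.4% and 23.4% of other kept cells. The part of such scatter in the low middle share was not tested, nor were the shares.

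Most counts of Sox9, Spp1 and Jag1 in clumps lay in those not called pericentral side, which in section 1 include the 2 clumps without a ratio. The larger of these had 4 pericentral and 0 periportal landmark counts and held 8 of the 13 Jag1 counts given here for section 1. The smaller had 0 pericentral and 7 periportal landmark counts. Sox9 had 12 counts in the 3 other clumps of section 1 and 15 in the 6 of section 2, and was seen in each of these 9 clumps. The pericentral-side clumps had 2 and 0 Sox9 counts. Spp1 had 19 and 7 counts in the other clumps and 0 and 0 on the pericentral side, where counts of 0 in 2213 and 328 allow up to 13.6 and 91.5 per 10000. In section 1, 3 cells of 1 other clump held 9 of the 12 Sox9 counts, and 4 of its cells held 15 of the 19 Spp1 counts. Jag1 had 13 and 8 against 2 and 0. The pericentral-side clumps of section 2 held only 328 counts, so 0 there carries little weight. Lgals1 was seen in all 17 clumps, with 46 and 82 counts in the other clumps and 28 and 10 on the pericentral side. Since these clumps were sorted with values in view, the differences were not tested.

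**Figure D5:**
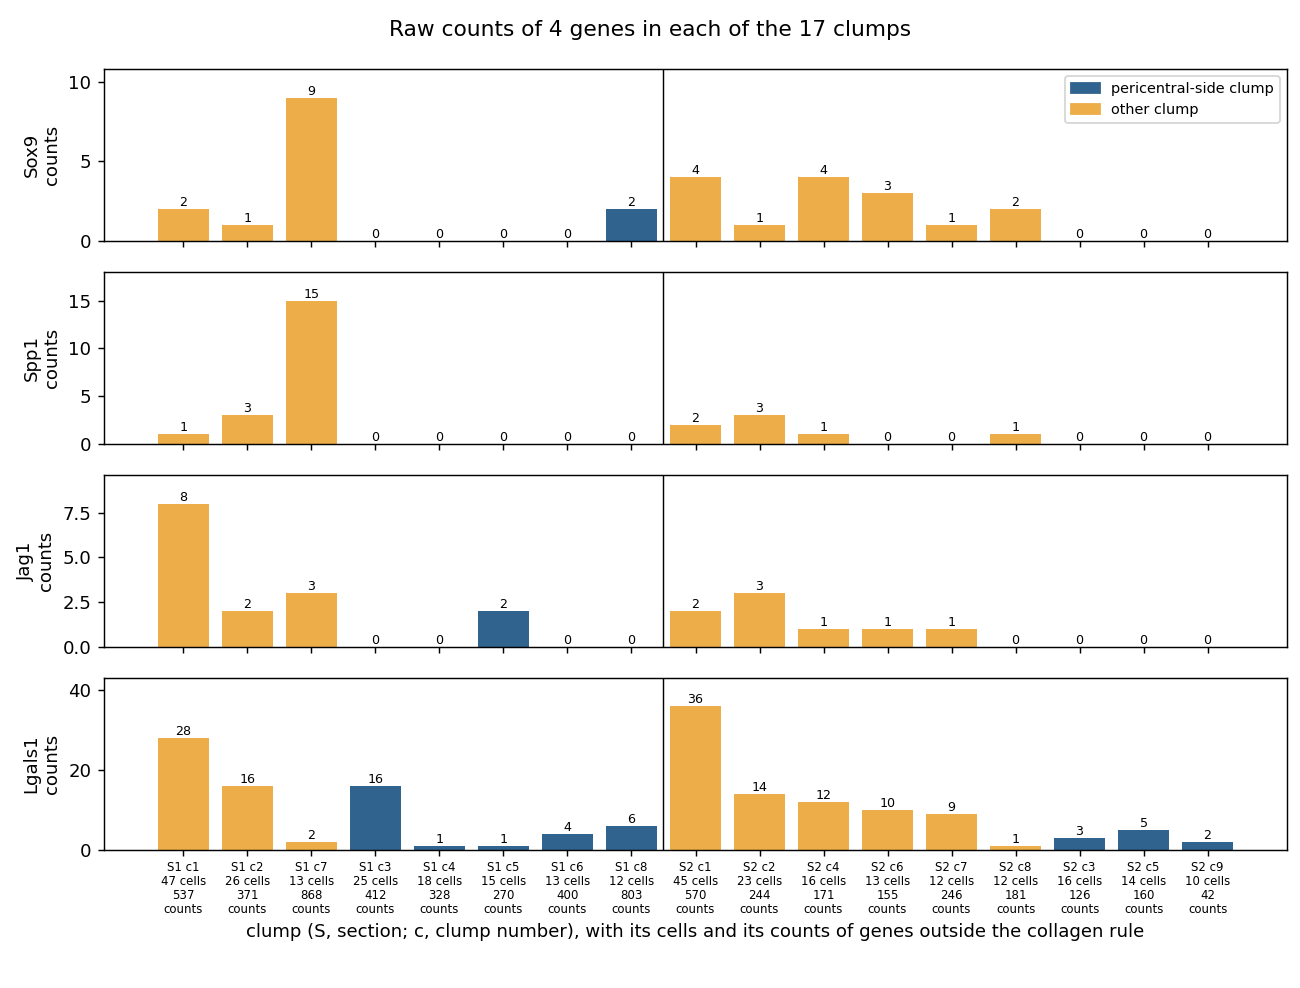
Raw counts of Sox9, Spp1, Jag1 and Lgals1 in each of the 17 clumps, section 1 left and section 2 right of the line. The cells and the counts outside the rule stand under each bar. Blue marks pericentral-side clumps and orange the others, which include 2 clumps of section 1 without a landmark ratio. Sox9 is above 0 in all 9 orange clumps, and Spp1 is at 0 in all 8 blue ones.

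A clump in section 1 stood apart by its counts. Its 13 cells had the lowest landmark ratio of the 6 clumps of that section with one and held 868 counts outside the rule. They had 9 Sox9 counts in 3 cells, 15 Spp1 counts in 4 cells, and 1 Krt7 and 1 Epcam count. Hp stood at 1210 per 10000 in them, against 250 to 778 in the other clumps of that section. The collagen of this clump was 14.4% of counts and its Col1a1 share 89.7%, the lowest of the 8 clumps of that section in both respects. The largest clump of section 1, with 47 cells, had 64.6% collagen, 8 Jag1 and 28 Lgals1 counts, and the largest of section 2, with 45 cells, had 45.9%, 2 and 36. Acta2 was seen in 4 of 8 and 3 of 9 clumps, with at most 3 counts in any.

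Image signals in the deposited cell tables, which the rule did not use, also set the cells apart. Per volume, the nuclear stain DAPI was at 1.38 and 1.24 times the median of other kept cells, and at 1.91 and 1.33 times in clumps. The channel named Ttr in the files, as is the gene of a protein secreted by hepatocytes, was at 0.725 and 0.828 times. Only 27.7% and 17.7% of collagen-rich cells were above the median of other kept cells in this channel. The channel named GFP was at 0.977 and 0.991 times. Volume was at 1.18 and 1.02 times, and at 0.991 and 0.932 times in clumps.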

How the data were processed

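The authors deposited, for each section, whole-number transcript counts per segmented cell and gene, cell positions and sizes, image signal per stain, and a list of decoded transcripts; these are raw counts and raw signal, per the file headers. For the decoding and segmentation software, no name is given in the sources used here. Counts of each class of cells were summed per section, giving 4 sums a comparison. Genes with at least 50 counts over them, without Col1a1 and Col3a1, went into a quasi-likelihood test in edgeR 4.0.16 under R 4.3.3, after TMM scaling and with a block for the section, at a Benjamini-Hochberg adjusted p of 0.05; DESeq2 1.42.0 was an alternative. Section numbers pair the sums, since both classes come from the same slice. Distances and shares used Python 3.11.15 with scipy 1.17.1; exact intervals are at 95%. A count of 0 was given a limit of 3 counts. Stain signal was divided by cell volume.

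Members and gene lists were chosen with earlier results of these data known. Genes named were those on the mesenchymal lists, the defining genes of other cell types, and per comparison the 10 largest changes in each direction among called genes of like direction in both sections with at least 30 counts; a gene named outside this rule is marked as such. In simulated counts the tests against neighbours recovered 79.7% of 4-fold and 30.4% of 2-fold changes, and those against all other kept cells 54.2% and 3.41%. No doublet caller was run.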

Additional observations from a re-analysis of the deposited data

Results flagged for a closer look

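Collagen RNA also lay outside the cells described. Transcripts of Col1a1 in no cell numbered 6335 in section 1 and 3397 in section 2, and those of Col3a1 numbered 368 and 381. Cells below the limits on counts or volume that nonetheless held at least 3 collagen counts numbered 84 in section 1 and 177 in section 2. These cells held 538 and 1155 counts over all genes, collagen included. These values come from data that the comparisons between cell classes did not use, and no control section allowed a background level.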

How the results depend on the processing

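Against all other kept cells, where 0 genes passed, 55 passed with DESeq2, 47 without TMM, 32 with collagen in the library sizes, 18 and 9 with thresholds of 2 and 5 collagen counts, 20 with at least 10 counts outside the rule, 21 with at least 20 counts in all and 21 with transcripts within 5 µm of the centre. Chosen after seeing the data, clumped cells alone gave 7 and cells outside clumps 11. Against neighbours, the 52 became 0 with no replicate block, 29 with genes of at least 10 counts and 7 within 100 µm. Calls against neighbours were thus present with the section as a block and absent without it. The prior degrees of freedom of that fit were 10800 with the block and 6.12 without. In the other 3 comparisons 0 passed with or without the block. Clumped against solitary cells gave 1 with DESeq2, without TMM, with links of 30 or 75 µm and with clumps of at least 20 cells, and 2 with clumps of at least 5. Cells with 6 or more against 3 collagen counts gave 1 with DESeq2.

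The mean share in clumps was 39.7%, and 21.8%, 49.6%, 52.6% and 19.6% with a link of 30 µm or 75 µm or with clumps of at least 5 or 20 cells, and 35.7% to 43.8% in single sections. The Col1a1 share went from 91.9% to 93.0% at 5 collagen counts. The neighbour share went from 25.8% to 34.9% within 25 µm and 17.1% within 100 µm. Tgfbi reversed to -0.23 against all other kept cells with clumped cells alone, and Klf1 against neighbours ranged from -1.01 to 0.047 when either section was left out, reversing without section 1. Causes were not tested. Among single named genes, 309 values were alike, 82 no longer passed, 81 newly passed, 45 moved and 2 reversed direction. Alike meant the same direction and the same side of the threshold. For values without an adjusted p, it meant a log2 shift below the standard deviation between the single-section values. Leaving out a section leaves no residual degrees of freedom, so no test was possible there. The shallow counts of section 2 limit every rare gene.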
